A study of Homo sapiens with 21 samples.

Results

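The HOX genes encode homeodomain transcription factors that set positional identity along the body axis. Their members were taken as the protein-coding rows of the count table named HOXA, HOXB, HOXC or HOXD plus a number, which gave 39 genes among 58735 rows. Their messenger RNA was measured by poly(A)-selected RNA sequencing in cells labelled HepG2, the name of a human hepatoma line. All cells were kept for 24 h in serum-free DMEM and received coumarin, a benzopyrone made by plants, at 0, 0.001, 0.01, 0.1, 1, 10 or 100 µM. Each dose had 3 biological replicates, which gave 21 libraries, and the 0 µM cells served as the control. How far the replicates came from separate cultures is not stated, so p-values measure the spread between these samples. In bulk RNA, fewer cells expressing a gene and less of its RNA per cell cannot be told apart.

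HOX genes lie in 4 clusters, and within a cluster they are numbered by paralog group from the 3′ end (group 1) to the 5′ end (group 13). In vertebrate embryos, low-numbered genes are switched on earlier and further forward, and retinoic acid, made from vitamin A, activates mainly these 3′ genes through its nuclear receptors. Polycomb complexes keep HOX genes silent, Trithorax-group complexes keep them active, and TALE homeodomain proteins such as PBX and MEIS bind DNA together with HOX proteins. In the files' GRCh38 coordinates, HOXA2 to HOXA13 span chr7:27100354-27200106 (minus strand), the HOXB genes chr17:48528526-48729178 (minus), the HOXC genes chr12:53938765-54056030 (plus) and the HOXD genes chr2:176092891-176190907 (plus).

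The libraries held 26984563 to 43375429 gene counts, of which HOX genes took 0.0355% to 0.0387%. Where a library shows 0 counts, up to 3 could have been missed, which is 0.0693 to 0.112 CPM (counts scaled to the library's total). The label was at odds with the hepatocyte markers. Of 11 such genes only CPS1, a urea cycle enzyme, reached a mean of 1 CPM, and ALB (albumin), TTR and FGB had 0 counts in every library. CPS1 itself was high, with a mean of 4695 CPM over the libraries. The summed levels of 10 mesenchymal markers (7 at 1 CPM or more) ran from 1480 to 1527 CPM at 100 µM, against 1681 to 1766 CPM at 0 µM. Most of that difference lay in COL3A1, a collagen gene, with 950 CPM at 100 µM, against 1164 CPM at 0 µM. Of the 7 tested mesenchymal markers 3 fell (COL3A1, PDGFRB and FAP), 2 rose (CDH2 and TWIST1) and the median log2 change was 0.04. For 10 epithelial markers (4 at 1 CPM or more), the sums were 3444 to 3533 CPM at 100 µM, against 4312 to 4796 CPM at 0 µM. Of 6 tested epithelial markers 3 fell (KRT8, KRT18 and CLDN4), none rose and the median log2 change was -0.21. Among all tested genes 12.9% fell and 14.4% rose at 100 µM, against 0 µM, with a median log2 change of -0.01. The part of these markers in the HOX results was not tested.

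HOXB9 had the largest called rise among the HOX genes at 100 µM (1.87-fold), and its values are set below beside those of its paralogs HOXA9, HOXC9 and HOXD9. To show how alike such paralogs are, the homeobox of HOXB9, HOXC9 and HOXD9, which encodes the DNA-binding homeodomain, is given from the GENCODE 29 transcripts, with the bases that all 3 share in capitals. The positions are chr17:48622921-48623100 (minus), chr12:54002465-54002644 (plus) and chr2:176123969-176124148 (plus), all in coding exons and on GRCh38.
HOXB9: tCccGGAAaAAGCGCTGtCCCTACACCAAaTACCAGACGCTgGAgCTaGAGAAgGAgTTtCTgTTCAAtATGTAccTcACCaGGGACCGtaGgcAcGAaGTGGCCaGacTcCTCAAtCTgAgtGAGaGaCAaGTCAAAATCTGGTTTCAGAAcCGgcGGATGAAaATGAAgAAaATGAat
HOXC9: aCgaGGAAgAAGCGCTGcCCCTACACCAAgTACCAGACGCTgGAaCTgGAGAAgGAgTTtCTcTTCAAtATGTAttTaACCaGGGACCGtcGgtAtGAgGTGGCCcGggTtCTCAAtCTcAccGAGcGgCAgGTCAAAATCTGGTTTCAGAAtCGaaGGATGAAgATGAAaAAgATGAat
HOXD9: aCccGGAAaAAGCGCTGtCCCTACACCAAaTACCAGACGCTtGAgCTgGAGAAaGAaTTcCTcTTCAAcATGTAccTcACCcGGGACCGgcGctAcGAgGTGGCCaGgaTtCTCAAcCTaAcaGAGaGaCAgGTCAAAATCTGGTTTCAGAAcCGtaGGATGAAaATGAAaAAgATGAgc
Of the 180 bases, 137 (76.1%) were shared by all 3 genes. HOXB9 matched HOXD9 at 152 bases (84.4%) and HOXC9 at 148 (82.2%). Over its whole exons HOXB9 shared no stretch of 50 bases with a HOX gene of another cluster or with a gene outside the clusters, and no exon of another annotated gene overlapped it.

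In untreated cells the 5′ paralog groups held most of the summed HOX level in HOXA, HOXC and HOXD, but not in HOXB. FPKM, the deposited fragment counts scaled by gene length and library, are used for levels of different genes. Paralog groups 9 to 13 held 61.2% of the summed HOX level (81.3 of 132.7 FPKM), groups 4 to 8 held 28.6% and groups 1 to 3 held 10.1%. HOXC10 alone gave 26.2 of those 81.3 FPKM. Groups 9 to 13 held 91.2% of the summed level in HOXC, 83.6% in HOXA, 71.6% in HOXD and 13.4% in HOXB. In HOXB, groups 4 to 8 held 60.0% and groups 1 to 3 held 26.6%. These sums also depend on which genes a cluster holds. HOXB has only HOXB9 and HOXB13 in groups 9 to 13, and HOXC has no gene in groups 1 to 3. By cluster, HOXC gave 47.5 FPKM (35.8%), HOXB 46.0 (34.6%), HOXA 30.7 (23.2%) and HOXD 8.51 (6.41%). In all, 22 of 39 genes reached 1 FPKM in the mean of the controls, and 8 were below 0.1 FPKM.

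HOXC10, known for its role in hindlimb and lumbar patterning, was the most abundant member, with 26.2 ± 1.55 FPKM in untreated cells (SD, n = 3), and it ranked first in 21 of 21 libraries. HOXB7 followed with 14.2 ± 0.758 FPKM and ranked second in all 21. HOXA11, a regulator of limb, kidney and uterine development, had 10.2 ± 0.346 FPKM. Each of these 3 lay above the next gene in the order in all 3 controls. HOXB2 (8.46 ± 0.558 FPKM), a hindbrain patterning gene, HOXC13 (7.94 ± 0.233 FPKM), which acts in hair and nails, HOXA10 (7.83 ± 0.190 FPKM), known for its role in the uterus, and HOXB6 (7.83 ± 0.337 FPKM) followed, and each overlapped the next of these 4 within the spread. HOXA13 (6.17 ± 0.171 FPKM), a gene of the distal limb and urogenital tract, came next and lay above HOXB9 (5.13 ± 0.342 FPKM) in all controls. HOXB9, HOXC11 (4.96 ± 0.0951 FPKM) and HOXD9 (4.91 ± 0.326 FPKM) overlapped.

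**Figure D1:**
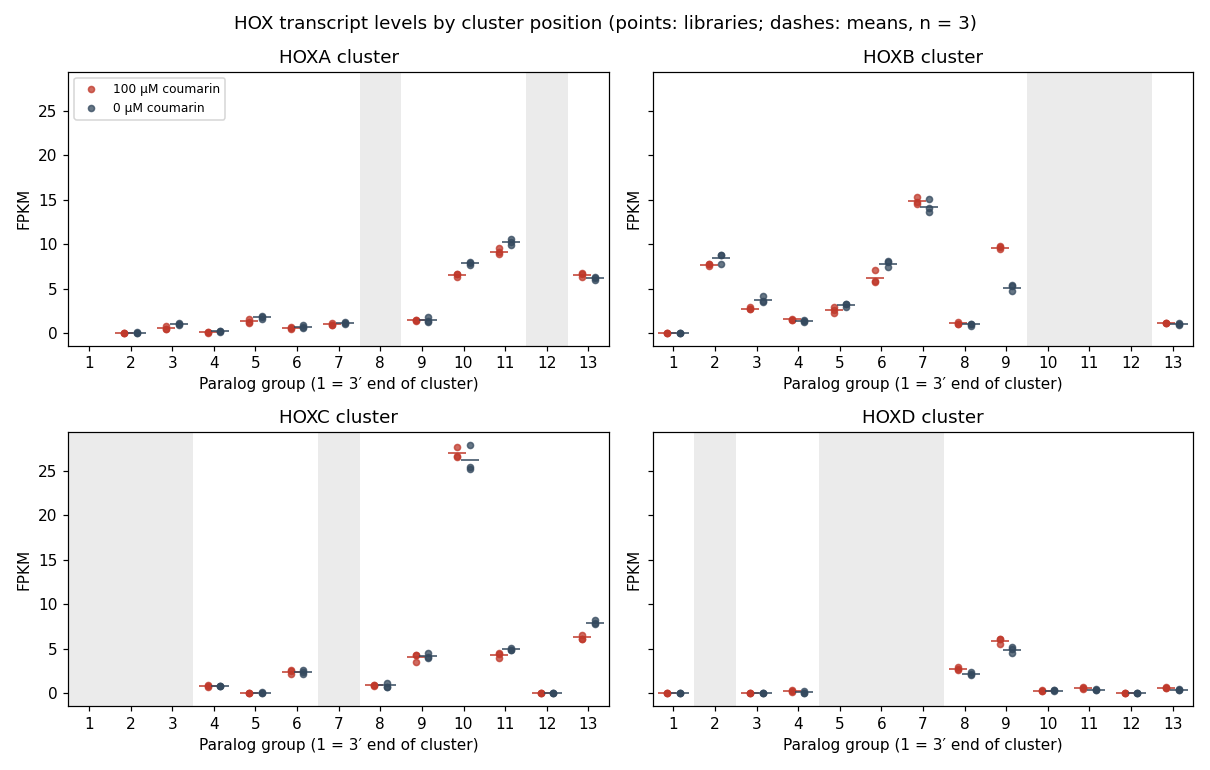
Deposited FPKM (y axis) of 38 HOX genes by cluster and paralog group (x axis) at 100 µM and 0 µM, with points for the 3 libraries of each dose and dashes for the means. Grey bands mark paralog groups with no gene in that cluster, and HOXC10 and HOXB7 stand highest, with 26.2 and 14.2 FPKM at 0 µM.

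Filtering for enough counts left 31 of 39 HOX genes to be tested, 9 of 11 in HOXA, 9 of 10 in HOXB, 7 of 9 in HOXC and 6 of 9 in HOXD. The 8 others, among them HOXA2, HOXB1, HOXC5, HOXC12, HOXD1, HOXD3 and HOXD12, held 0 to 13 counts in any library, and HOXD1 had 0 in all 21. At 100 µM, 12 of the 31 tested genes passed an edgeR adjusted p under 0.05 (38.7%, where 27.3% of all tested genes passed). The 3 that rose (9.68%, against 14.4% of all tested genes) were HOXB9, HOXD8 and HOXD9. The 9 that fell (29%, against 12.9% of all tested genes) were HOXA3, HOXA5, HOXA10, HOXA11, HOXB3, HOXB5, HOXB6, HOXC11 and HOXC13. The median log2 change was -0.04 over the tested HOX genes and -0.01 over all tested genes. The median size of the change, sign set aside, was 0.24 for HOX genes and 0.15 for all. The median level was lower for the tested HOX genes, at 5.90 CPM, than for all tested genes, at 15.9 CPM. The part of level in the size of the changes was not tested.

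**Figure D2:**
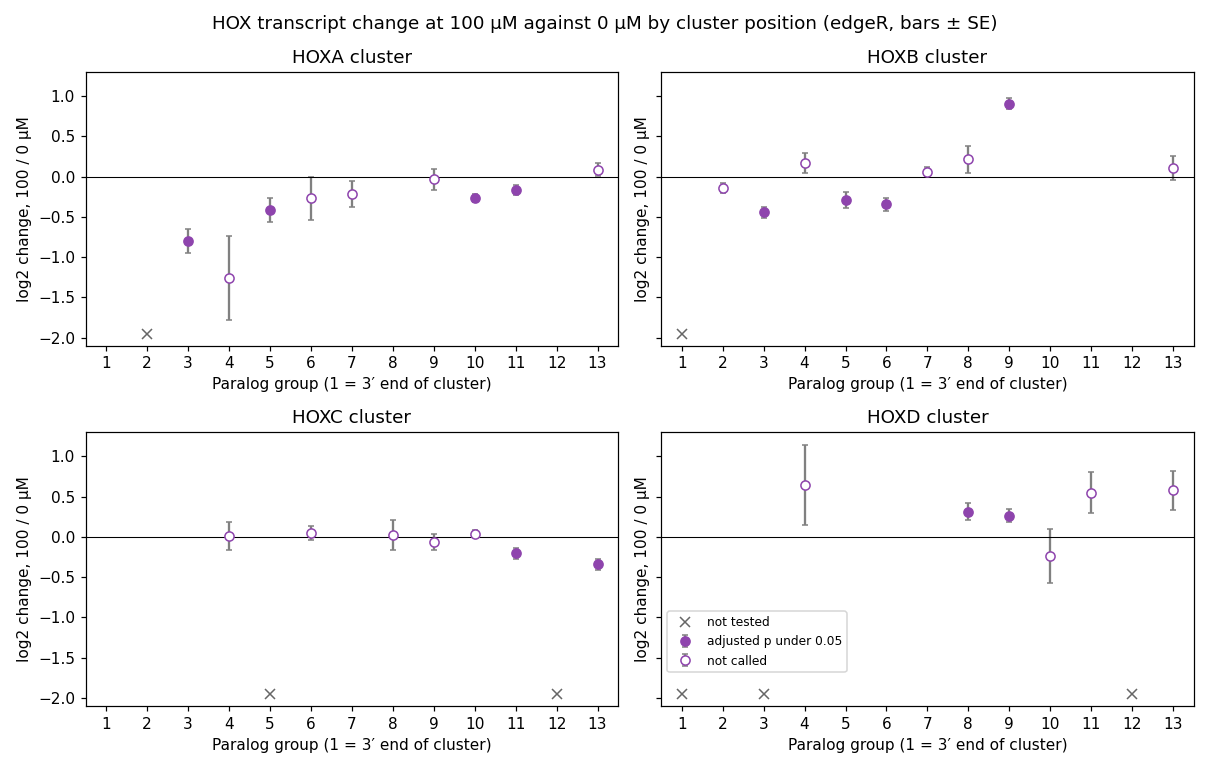
Log2 change at 100 µM against 0 µM for the 31 tested HOX genes by cluster and paralog group, from the edgeR fit, with the SE as bars, called genes filled and crosses for genes drawn but not tested. HOXB9 stands at 0.90, and the 4 called HOXA genes all lie below 0.

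HOXB9, known for patterning the thoracic skeleton and for its expression in several carcinomas, had the largest fold change among the called HOX genes. It had 25.3, 26.0 and 26.2 CPM at 100 µM, against 14.2, 14.5 and 12.8 CPM at 0 µM. All 3 treated libraries lay above every control, and also above all 12 libraries at 0.001 to 1 µM. The rise was 1.87-fold (log2 change 0.90 ± 0.069 (SE), edgeR adjusted p = 1.99e-13), and it rested on 725 to 1005 counts per library at 100 µM, against 396 to 441 at 0 µM. Per length, HOXB9 had 9.62 ± 0.165 FPKM at 100 µM, against 5.13 ± 0.342 FPKM at 0 µM (SD, n = 3 each), and its rank among HOX genes by FPKM ran from 3 to 12 over the 21 libraries. At 10 µM it had 15.5, 14.5 and 14.5 CPM, which overlapped the controls.

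Among the other members of paralog group 9, HOXD9, a limb patterning gene, rose with 11.8, 10.9 and 11.8 CPM at 100 µM, against 10.1, 8.91 and 9.72 CPM at 0 µM. The groups did not overlap, and the log2 change was 0.26 ± 0.081 (SE) with edgeR adjusted p = 0.0127. HOXA9, a blood stem cell and leukaemia gene, had 4.32, 4.79 and 4.52 CPM at 100 µM, against 4.11, 4.18 and 5.68 CPM at 0 µM (log2 change -0.04, edgeR adjusted p = 0.867). HOXC9, a thoracic patterning gene, had 7.53, 7.48 and 6.19 CPM at 100 µM, against 7.92, 7.17 and 6.94 CPM at 0 µM (log2 change -0.06, edgeR adjusted p = 0.682). Both overlapped the controls. The differences between these paralogs were not tested.

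In the HOXD cluster, 2 of 6 tested genes rose and none fell, where 14.4% of all tested genes rose and 12.9% fell. The median log2 change of the cluster was 0.43. HOXD8, a gene of the trunk region, had 7.60, 8.02 and 7.08 CPM at 100 µM, against 6.65, 6.05 and 5.55 CPM at 0 µM. Every 100 µM library was above every control (log2 change 0.31 ± 0.108 (SE), edgeR adjusted p = 0.0273). HOXD13, the gene mutated in human synpolydactyly, had 1.50, 1.36 and 1.72 CPM at 100 µM, against 1.00, 1.12 and 0.968 CPM at 0 µM. These did not overlap either, but the change missed the threshold (log2 change 0.58, edgeR adjusted p = 0.0729), while against the 12 libraries at 0.001 to 1 µM it passed (log2 change 0.60, edgeR adjusted p = 0.0101). HOXD11, a gene of the forearm and kidney, had 1.57, 1.33 and 1.04 CPM at 100 µM, against 0.802, 0.789 and 1.07 CPM at 0 µM (log2 change 0.55, edgeR adjusted p = 0.107). The summed FPKM of HOXD were 10.5 ± 0.417 at 100 µM, against 8.51 ± 0.311 at 0 µM (SD, n = 3 each). HOXD4 and HOXD10, tested at mean levels under 1 CPM, did not pass.

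In the HOXA cluster, 4 of 9 tested genes fell and none rose, where 12.9% of all tested genes fell and 14.4% rose. The median log2 change of the cluster was -0.27. HOXA3, which patterns the pharyngeal arches, thymus and parathyroid, fell most among the called genes, with 2.30, 2.17 and 3.39 CPM at 100 µM, against 4.91, 4.83 and 4.23 CPM at 0 µM. The groups did not overlap (log2 change -0.80 ± 0.146 (SE), edgeR adjusted p = 4.78e-05), a 1.74-fold fall. HOXA10 had 24.3, 25.7 and 25.6 CPM at 100 µM, against 30.9, 29.6 and 30.5 CPM at 0 µM (log2 change -0.27 ± 0.054 (SE), edgeR adjusted p = 0.000182). HOXA11 had 23.0, 21.2 and 21.8 CPM at 100 µM, against 25.4, 23.8 and 24.8 CPM at 0 µM (log2 change -0.17 ± 0.058 (SE), edgeR adjusted p = 0.0283). Both genes lay lower in every treated library than in any control. HOXA5, a lung development gene, had 2.82, 1.97 and 2.32 CPM at 100 µM, against 3.44, 3.22 and 2.84 CPM at 0 µM (log2 change -0.42 ± 0.150 (SE), edgeR adjusted p = 0.0335). HOXA4 was at low levels, with 0.0697, 0.238 and 0.209 CPM at 100 µM, against 0.501, 0.296 and 0.484 CPM at 0 µM (log2 change -1.26, edgeR adjusted p = 0.0703). All treated libraries of HOXA5 and HOXA4 lay below all controls, but HOXA4 was not called. HOXA7 had 2.41, 2.79 and 2.30 CPM at 100 µM, against 3.27, 2.86 and 2.55 CPM at 0 µM (log2 change -0.22, edgeR adjusted p = 0.365). HOXA13, the most 5′ gene of the cluster, had 35.0, 35.7 and 33.4 CPM at 100 µM, against 31.7, 33.6 and 33.0 CPM at 0 µM (log2 change 0.08, edgeR adjusted p = 0.496). Both overlapped the controls. HOXA6, tested at under 1 CPM, did not pass. Summed HOXA levels were 27.4 ± 0.193 FPKM at 100 µM, against 30.7 ± 0.382 FPKM at 0 µM (SD, n = 3 each), and their ranges did not overlap.

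Promoters of called HOX genes are shown because genes of retinoic acid signalling changed at the same dose, and retinoic acid receptors bind pairs of a short half-site. HOXA3, HOXA10, HOXA11 and HOXD8 were the called genes matched in the RefSeq promoter table (GRCh38.p14). The 250 bases before the annotated start are shown, in the direction of transcription, with matches on either strand to the half-site AGGTCA, to its variant GGGTCA, to the variant AGTTCA or to the variant GGTTCA in capitals. None of the matches shown overlap. For HOXA3, which has 7 starts in the table, the furthest upstream is shown. This window lies between HOXA6 (chr7:27145396-27150603) and HOXA7 (chr7:27153716-27157936), and windows of the other HOXA3 starts are not shown. The windows are chr7:27152584-27152833 (minus), chr7:27179862-27180111 (minus), chr7:27185233-27185482 (minus) and chr2:176129455-176129704 (plus). HOXA10 has 2 starts, of which the furthest upstream is shown as well. Its window lies inside the deposited span of the gene, chr7:27170591-27180261.
HOXA3: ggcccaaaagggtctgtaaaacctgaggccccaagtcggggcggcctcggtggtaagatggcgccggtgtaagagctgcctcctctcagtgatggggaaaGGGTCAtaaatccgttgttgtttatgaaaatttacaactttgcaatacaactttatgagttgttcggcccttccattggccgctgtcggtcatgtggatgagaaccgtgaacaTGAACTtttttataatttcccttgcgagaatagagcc
HOXA10: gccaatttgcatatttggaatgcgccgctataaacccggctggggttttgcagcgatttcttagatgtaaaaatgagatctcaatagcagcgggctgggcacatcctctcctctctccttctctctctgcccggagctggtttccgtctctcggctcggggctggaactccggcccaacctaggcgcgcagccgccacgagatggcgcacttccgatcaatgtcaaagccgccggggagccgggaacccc
HOXA11: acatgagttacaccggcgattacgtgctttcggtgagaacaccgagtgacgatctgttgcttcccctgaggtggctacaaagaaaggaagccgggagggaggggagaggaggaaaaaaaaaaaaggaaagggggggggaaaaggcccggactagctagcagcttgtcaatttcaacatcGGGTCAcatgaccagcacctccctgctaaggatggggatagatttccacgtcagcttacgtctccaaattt
HOXD8: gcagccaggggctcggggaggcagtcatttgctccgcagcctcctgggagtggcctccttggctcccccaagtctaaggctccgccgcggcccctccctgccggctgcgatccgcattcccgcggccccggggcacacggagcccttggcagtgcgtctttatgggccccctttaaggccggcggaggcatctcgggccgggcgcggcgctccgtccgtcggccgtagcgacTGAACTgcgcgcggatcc
HOXA3 had GGGTCA at 150 and TGAACT at 37 bases before the start, HOXA11 had GGGTCA at 71 and HOXD8 had TGAACT at 18. HOXA10 had no match in this window. A half-site occurred in 9 of 27 HOX windows (33.3%, 20 genes) and in 33.8% of all 35116 promoters. A match is not a bound site.

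In the HOXB cluster, 3 of 9 tested genes fell and 1, HOXB9, rose, where 12.9% of all tested genes fell and 14.4% rose. HOXB3, a hindbrain patterning gene, had 21.0, 20.9 and 22.6 CPM at 100 µM, against 27.9, 27.5 and 32.4 CPM at 0 µM (log2 change -0.44 ± 0.068 (SE), edgeR adjusted p = 2.73e-06). HOXB6 had 19.1, 15.8 and 15.5 CPM at 100 µM, against 20.2, 21.7 and 22.0 CPM at 0 µM (log2 change -0.35 ± 0.08 (SE), edgeR adjusted p = 0.00104). In both genes the treated libraries lay below all controls. HOXB5, with roles in gut innervation, had 4.81, 6.15 and 5.51 CPM at 100 µM, against 7.05, 6.21 and 6.94 CPM at 0 µM (log2 change -0.29 ± 0.103 (SE), edgeR adjusted p = 0.0299). HOXB2 had 18.8, 18.4 and 18.9 CPM at 100 µM, against 21.4, 19.1 and 21.4 CPM at 0 µM (log2 change -0.14, edgeR adjusted p = 0.107). Both sets of treated libraries lay below all controls. HOXB2 missed the threshold against the controls and passed it against the 12 libraries at 0.001 to 1 µM (log2 change -0.16, edgeR adjusted p = 0.017). HOXB4, a blood stem cell gene, had 5.86, 5.95 and 6.24 CPM at 100 µM, against 5.01, 5.72 and 5.36 CPM at 0 µM (log2 change 0.17, edgeR adjusted p = 0.334). HOXB8, a gene of blood progenitors, had 2.30, 2.31 and 2.66 CPM at 100 µM, against 2.21, 1.84 and 2.26 CPM at 0 µM (log2 change 0.21, edgeR adjusted p = 0.381). The treated libraries of both lay above all controls. HOXB7 had 23.3, 23.1 and 24.4 CPM at 100 µM, against 24.0, 22.5 and 21.7 CPM at 0 µM (log2 change 0.06, edgeR adjusted p = 0.555). HOXB13, a prostate lineage gene, had 4.01, 4.01 and 4.18 CPM at 100 µM, against 3.44, 4.24 and 3.65 CPM at 0 µM (log2 change 0.11, edgeR adjusted p = 0.633). Both overlapped the controls.

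In the HOXC cluster, 2 of 7 tested genes fell and none rose, where 12.9% of all tested genes fell and 14.4% rose. HOXC13 had 16.6, 15.5 and 15.4 CPM at 100 µM, against 20.7, 19.6 and 19.9 CPM at 0 µM (log2 change -0.34 ± 0.07 (SE), edgeR adjusted p = 0.000235). HOXC11 had 14.9, 13.6 and 15.4 CPM at 100 µM, against 16.7, 16.8 and 17.3 CPM at 0 µM (log2 change -0.21 ± 0.073 (SE), edgeR adjusted p = 0.0309). Neither overlapped the controls, and both lie towards the 5′ end of the cluster. HOXC10, next to HOXC11, had 67.0, 64.6 and 64.6 CPM at 100 µM, against 67.9, 61.9 and 61.3 CPM at 0 µM (log2 change 0.04, edgeR adjusted p = 0.593). HOXC6, a gene of the brachial spinal cord and mammary gland, had 9.31, 8.16 and 9.74 CPM at 100 µM, against 8.72, 8.02 and 9.62 CPM at 0 µM (log2 change 0.05, edgeR adjusted p = 0.724). Both overlapped their controls. HOXC8, which patterns the brachial and thoracic region, had 1.78, 1.70 and 1.91 CPM at 100 µM, against 1.47, 2.37 and 1.48 CPM at 0 µM (log2 change 0.02, edgeR adjusted p = 0.954). HOXC4, the most 3′ gene of the cluster, had 2.02, 2.79 and 2.51 CPM at 100 µM, against 2.27, 2.53 and 2.45 CPM at 0 µM (log2 change 0.01, edgeR adjusted p = 0.966). HOXC8 and HOXC4 overlapped their controls as well. Summed over all 39 HOX genes, levels were 131 ± 1.93 FPKM at 100 µM, against 133 ± 3.19 FPKM at 0 µM (SD, n = 3 each), and these ranges overlapped. In CPM the same sum was 359 ± 4.26 at 100 µM, against 371 ± 5.79 at 0 µM (SD, n = 3 each), with no overlap. HOX genes took 0.0355% to 0.0360% of the counts at 100 µM, against 0.0376% to 0.0387% at 0 µM. This share was also below every control at 10 µM (0.0359% to 0.0364%) and at 1 µM (0.0362% to 0.0367%). Of the library total that the deposited FPKM imply, 3.49% lay outside the gene counts at 100 µM, against 6.70% at 0 µM (mean of 3 libraries each). By library these were 2.86%, 3.93% and 3.69% at 100 µM, against 3.91%, 8.03% and 8.17% at 0 µM, so control replicate 1 overlapped the treated libraries.

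By position, 2 of 3 tested genes in paralog groups 1 to 3 fell and none rose (median log2 change -0.44). In groups 4 to 8, 1 of 14 rose and 3 fell (median 0.02), and in groups 9 to 13, 2 of 14 rose and 4 fell (median 0.00054). Of all tested genes 14.4% rose and 12.9% fell. Groups 1 to 3 rest on 3 tested genes, and differences between positions were not tested. All 3 libraries at 100 µM lay above all controls for 6 HOX genes (19.4% of those tested, where 20.9% of all tested genes did so) and below all controls for 11 (35.5%, where 19.9% did so). Against the 12 libraries at 0.001 to 1 µM, the 100 µM libraries lay above all for 2 genes (6.45%, where 10.4% of all tested genes did so) and below all for 8 (25.8%, where 10.9% did so). By edgeR, 3 HOX genes were higher at 100 µM than in these 12 libraries (9.68%, where 16.6% of all tested genes were) and 10 were lower (32.3%, where 16.5% were). HOXA5 (log2 change -0.30, edgeR adjusted p = 0.0517) and HOXD9 (log2 change 0.15, edgeR adjusted p = 0.0664) did not pass there, though called against the controls. HOXB2, HOXC10 and HOXD13 passed there and not against the controls.

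HOXA3, HOXA10, HOXB3, HOXB6, HOXB9 and HOXC13 kept their calls when any 1 library at 0 or 100 µM was left out. The other 6 did not. HOXA5 lost its call without control replicate 1 or 2 or 100 µM replicate 2 or 3, and its edgeR adjusted p was then 0.0757 to 0.172. HOXA11 lost it without control replicate 1 or 3 or 100 µM replicate 2 or 3 (edgeR adjusted p 0.0673 to 0.102), and HOXB5 without control replicate 1 or 3 or 100 µM replicate 1 or 3 (0.0632 to 0.156). HOXC11 lost it without control replicate 2 or 3 or 100 µM replicate 2 (0.0526 to 0.147). HOXD8 lost it without control replicate 2 or 3 or 100 µM replicate 1 or 2 (0.0699 to 0.145), and HOXD9 without control replicate 2 or 100 µM replicate 1 or 3 (0.054 to 0.0998). With these left out the log2 changes kept their sign. Without control replicate 2 HOXB2 was called (log2 change -0.20, edgeR adjusted p = 0.0388). With control replicate 1 as the only control, HOXB6 was lost as well (edgeR adjusted p = 0.132).

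The 6 doses share the 3 control libraries, so their values are given side by side. No HOX gene was called at 0.001 µM (where 1.53% of all tested genes were), and by edgeR 1 had an unadjusted p under 0.05 and by DESeq2 0 were called. HOXC10 was the only HOX gene called at 0.01 µM (where 5.86% of all tested genes were called, 4.77% as higher) and at 0.1 µM (where 6.45% were, 5.02% as higher), and it rose at both. It had 71.2, 71.6 and 76.0 CPM at 0.01 µM (log2 change 0.20, edgeR adjusted p = 0.00555) and 70.2, 73.2 and 69.4 CPM at 0.1 µM (log2 change 0.16, edgeR adjusted p = 0.0321), against 67.9, 61.9 and 61.3 CPM at 0 µM. All 6 libraries at these doses lay above all controls. The call at 0.01 µM was lost without control replicate 3 or 0.01 µM replicate 3, that at 0.1 µM without control replicate 2 or 3 or 0.1 µM replicate 1 or 2, and both with control replicate 1, at 67.9 CPM, as the only control (0 called in each case). No HOX gene was called at 1 µM (where 2.01% of all tested genes were), 0 had an unadjusted p under 0.05 by edgeR and DESeq2 called 0.

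At 10 µM no HOX gene was called (where 2.62% of all tested genes were). By edgeR, 5 had an unadjusted p under 0.05, all lower than in controls, and DESeq2 called 0. They were HOXA3, HOXA4, HOXA10, HOXB3 and HOXB5, and in each the 3 libraries lay below all controls. For 1 HOX gene, HOXA13, the 3 libraries lay above all controls. The share of all tested genes with an unadjusted p under 0.05, or without overlap, is not given for 10 µM. Without that share these counts are not read as a result about HOX genes. HOXB3 had 25.1, 25.2 and 25.2 CPM at 10 µM (log2 change -0.22, edgeR adjusted p = 0.0682), and HOXA3 had 3.94, 3.24 and 3.83 CPM (log2 change -0.34). HOXA10 had 26.7, 28.3 and 28.5 CPM (log2 change -0.12).

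**Figure D3:**
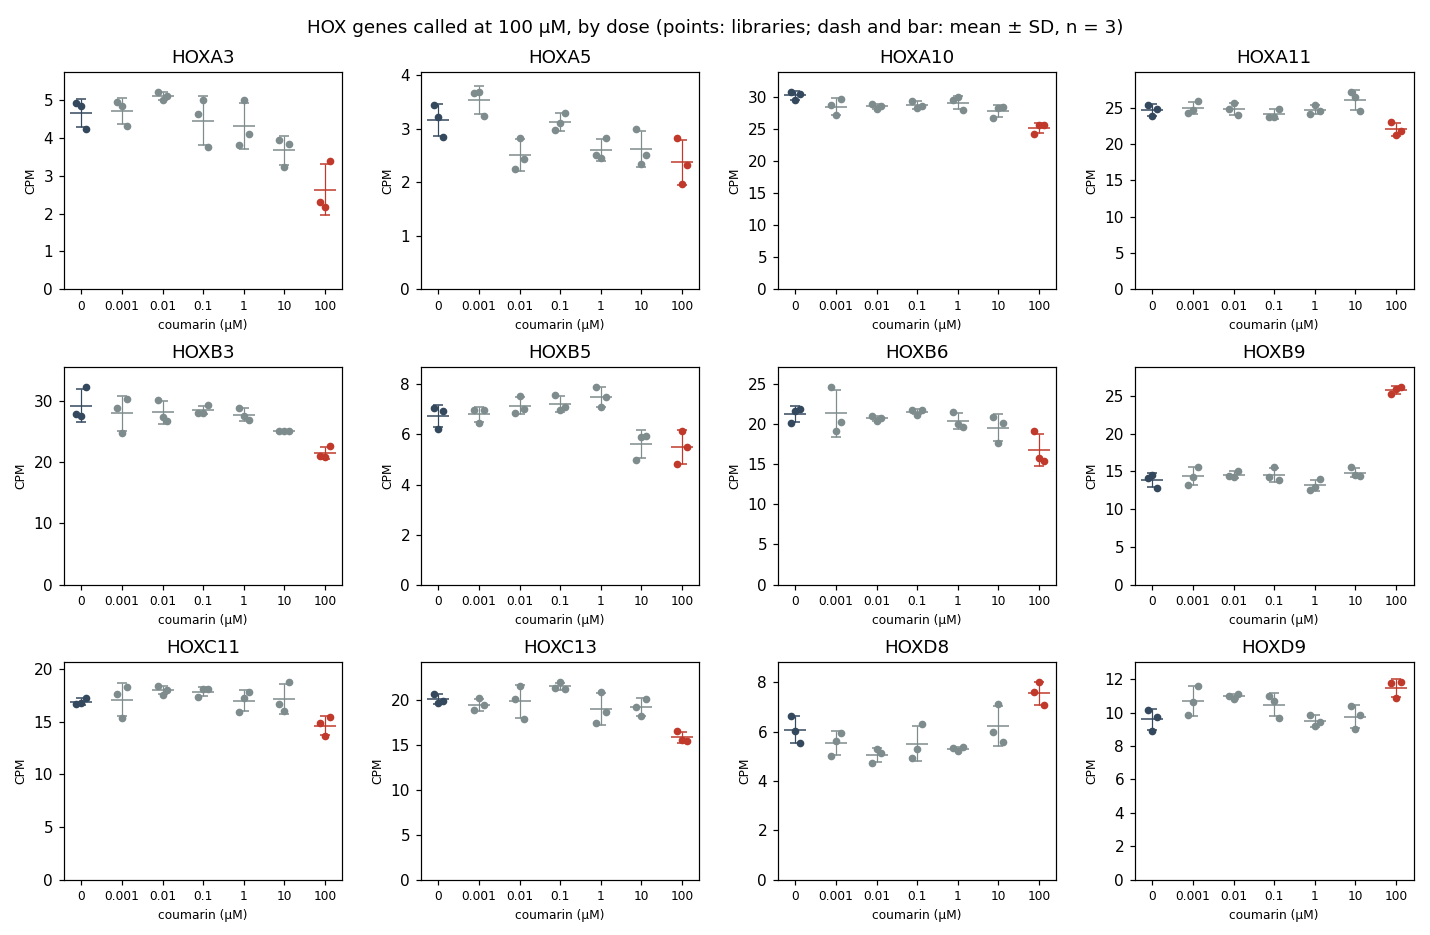
CPM of the 12 HOX genes called at 100 µM across the 7 doses, with a point per library and the mean ± SD (n = 3) as dash and bar. HOXB9 has 25.3 to 26.2 CPM at 100 µM and lies at 15.6 CPM or below in the other 18 libraries, and HOXB3 lies lowest at 100 µM.

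A slope on log10 dose over the 18 treated libraries, which leaves the controls out, was called for 12 of 31 HOX genes (38.7%, where 21.5% of all tested genes were), 2 positive (6.45%, where 10% of all tested genes were) and 10 negative (32.3%, where 11.5% were). Slopes are log2 per 10-fold dose. The positive ones were HOXB9 at 0.13 (edgeR adjusted p = 0.0162) and HOXD8 at 0.09 (edgeR adjusted p = 0.0035). The steepest negative ones were HOXA4 at -0.27 (edgeR adjusted p = 0.0344), HOXA3 at -0.16 (edgeR adjusted p = 0.000327), HOXA5 at -0.09 (edgeR adjusted p = 0.0194), HOXB3 at -0.07 (edgeR adjusted p = 0.000732) and HOXB5 at -0.07 (edgeR adjusted p = 0.0163). HOXB6, HOXC13, HOXC11, HOXA10 and HOXC10 had smaller called negative slopes, from -0.06 to -0.03. Without the 3 libraries at 100 µM none of the slopes passed in edgeR, and that of HOXB9 was -0.0044 (edgeR adjusted p = 0.94). In that fit 0 positive and 6 negative slopes had an unadjusted edgeR p under 0.05, and the share of all tested genes is not given. Leaving out any 1 library at 100 µM ended the HOXB9 call (edgeR adjusted p 0.0545 to 0.0646) and left 4 to 6 negative slopes called, and leaving out 0.001 µM replicate 1 left 6. The slopes of HOXA3, HOXB3, HOXB6, HOXC10 and HOXD8 stayed called with any 1 of the 18 libraries left out. That of HOXA4 was lost without 0.001 µM replicate 1 or 2, 10 µM replicate 1 or 2 or 100 µM replicate 1 or 3 (edgeR adjusted p 0.0548 to 0.0969). HOXA5 was lost without 0.001 µM replicate 1 or 2 or 100 µM replicate 2 or 3, HOXB5 without 100 µM replicate 1 or 3, and HOXC13 without any 1 library at 100 µM. HOXA10 was lost in 13 of the 18 omissions, kept only without 0.001 µM replicate 2, 1 µM replicate 1 or 2 or 10 µM replicate 2 or 3. HOXC11 was lost in 14 and kept only without 0.001 µM replicate 2, 1 µM replicate 2 or 3 or 10 µM replicate 3. Under RLE scaling, and without a filter on low counts, 8 negative slopes were called.

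The HOX clusters also hold noncoding RNAs, several of them antisense to the coding genes. Of 18 tested, 6 fell at 100 µM (33.3%, where 12.9% of all tested genes fell) and none rose, with a median log2 change of -0.17. HOTAIR, a long RNA of the HOXC cluster, had 21.0, 23.3 and 23.5 CPM at 100 µM, against 30.6, 31.0 and 31.9 CPM at 0 µM (log2 change -0.46, edgeR adjusted p = 3.81e-08). HOXA-AS2 had 1.60, 1.16 and 1.67 CPM at 100 µM, against 3.31, 3.12 and 4.13 CPM at 0 µM (log2 change -1.24, edgeR adjusted p = 2.45e-07). HOXA11-AS had 12.2, 12.4 and 11.3 CPM at 100 µM, against 17.1, 18.8 and 17.2 CPM at 0 µM (log2 change -0.57, edgeR adjusted p = 1.32e-06), and HOTTIP, an RNA of the 5′ end of HOXA, had 9.71 ± 0.465 CPM at 100 µM, against 12.2 ± 0.674 CPM at 0 µM (SD, n = 3 each; log2 change -0.33, edgeR adjusted p = 0.00222). All 3 treated libraries of HOTAIR, HOXA-AS2 and HOXA11-AS lay below all controls. HOXA-AS2 shares 374 exonic bases with HOXA3 on the other strand (8.69% of HOXA3), HOXA11-AS 717 with HOXA11 (31.1%), HOXA10-AS 608 with HOXA10 (16.4%), HOXC13-AS 172 with HOXC13 (7.1%) and HOXB-AS1 374 with HOXB3 (5.02%). HOXB-AS3 shares 425 bases with HOXB6 (16.3%) and 73 with HOXB5 (3.58%). Of these antisense genes HOXB-AS1 fell as well (log2 change -0.42, edgeR adjusted p = 0.0213), while HOXA10-AS, HOXB-AS3 and HOXC13-AS did not pass. HOXB3 and HOXB6 share 433 bases on the same strand. The strand setting of the counts is not given, so reads of a gene and its antisense partner cannot be told apart. The falls of HOXA3, HOXA10, HOXA11, HOXB3, HOXB5, HOXB6 and HOXC13 carry that limit. The called slopes of HOXA4, with 254 exonic bases (14.5%) shared with HOXA-AS2, and HOXC10, with 63 (2.7%) shared with HOXC-AS3, carry it too. HOXA4 also shares 541 bases (31.0%) with AC004080.6 on the same strand. HOXB9, HOXD8, HOXD9, HOXA5 and HOXC11 overlap no other exon.

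Genes known to act with HOX genes were set beside them at 100 µM, against 0 µM. Of 13 tested genes of retinoic acid signalling 9 fell (69.2%, where 12.9% of all tested genes fell) and none rose (median log2 change -0.41, where it was -0.01 over all tested genes). STRA6, the retinol uptake receptor, had 33.8 ± 1.04 CPM at 100 µM, against 92.9 ± 4.16 CPM at 0 µM (SD, n = 3 each; log2 change -1.46, edgeR adjusted p = 3.72e-23). DHRS3, which reduces retinal, had 46.5 ± 2.21 CPM at 100 µM, against 104 ± 4.52 CPM at 0 µM (SD, n = 3 each; log2 change -1.16, edgeR adjusted p = 7.66e-21). CYP26B1 and CYP26A1, which degrade retinoic acid, had 5.38 and 0.359 CPM at 100 µM, against 19.2 and 1.58 CPM at 0 µM (log2 changes -1.84 and -2.11). TGM2, a transglutaminase induced by retinoic acid, also fell (log2 change -1.81, edgeR adjusted p = 5.19e-20). At 10 µM, 4 of the 13 fell (30.8%, where 0.874% of all tested genes fell). RARB, a receptor gene, held too few counts to be tested.

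Of all tested genes 14.4% rose and 12.9% fell at 100 µM. Of 10 tested TALE cofactors 2 rose and 1 fell (median log2 change 0.03). MEIS1, a cofactor of HOX proteins, rose (log2 change 0.25, edgeR adjusted p = 0.0191), as did its relative MEIS2 (log2 change 0.23, edgeR adjusted p = 0.0196). Of 27 tested Polycomb genes 7 rose (25.9%) and 1 fell (3.70%; median 0.04). Those that rose include CBX6 (log2 change 0.38, edgeR adjusted p = 6.8e-09) and EZH2, the methyltransferase subunit (log2 change 0.28, edgeR adjusted p = 1.02e-05), while PCGF3 fell (log2 change -0.23, edgeR adjusted p = 0.000184). Of 14 Trithorax and H3K27 demethylase genes 2 rose, a share (14.3%) near that of all tested genes, and none fell (median 0.09). They were WDR5 (log2 change 0.16, edgeR adjusted p = 0.00383) and RBBP5 (log2 change 0.17, edgeR adjusted p = 0.006). Of 9 other homeobox genes (CDX, EVX, GBX, MNX1 and EN2) 3 were tested, and EN2 rose (log2 change 0.96, edgeR adjusted p = 0.0123).

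**Figure D4:**
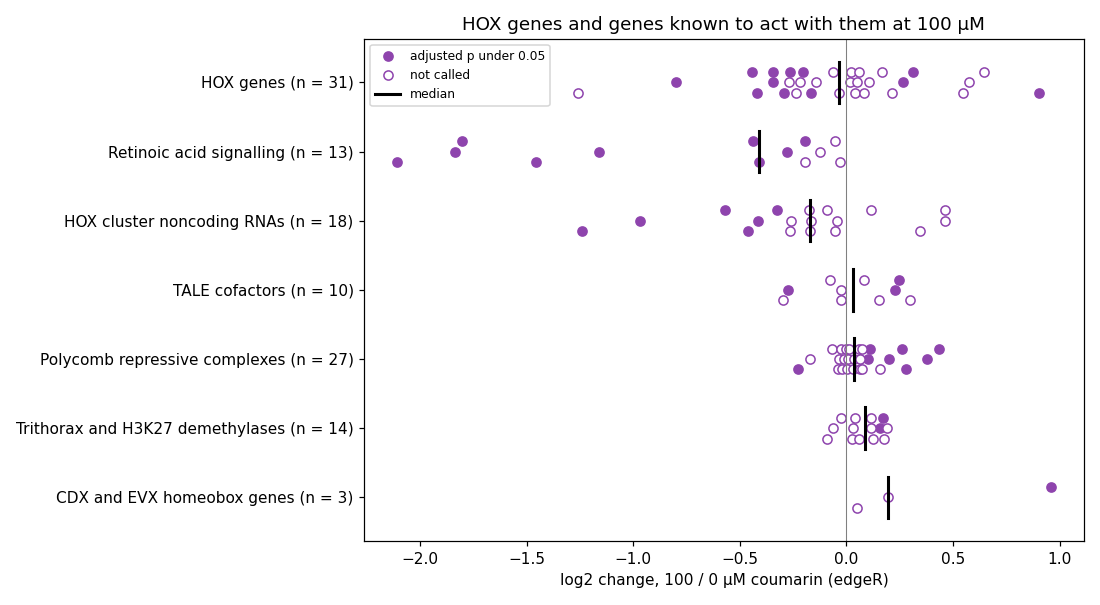
Log2 change at 100 µM against 0 µM of the tested genes in the HOX set and in each related list, with 1 point per gene, filled where called, and the median as a bar. Genes of retinoic acid signalling have a median of -0.41 and the HOX genes of -0.04.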

How the data were processed

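Whole-number counts per gene and, in a second table, FPKM were deposited by the authors for each library. Per the submitters' processing notes, the genome build was GRCh38 and the tools included HISAT2 and DESeq2. For the counter, its strand setting and the annotation, nothing is given in these sources. Poly(dT) selection is stated in the labels' protocols. Exons and transcripts were taken from GENCODE 29, in which all 39 HOX genes had the exonic length given in the deposited table.

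Libraries were grouped by dose. Counts were fitted in edgeR 4.0.16 (R 4.3.3) over all 21 libraries in 1 model of 7 groups, with TMM scaling and 14 residual degrees of freedom, over 16699 genes that passed filterByExpr. The robust quasi-likelihood test was two-sided, with Benjamini-Hochberg adjustment over all of these genes and a threshold of 0.05. A slope on log10 dose was fitted over the 18 treated libraries (16522 genes). CPM used TMM-scaled totals, and the SE was derived from the test statistic. The scripts were tested on simulated data. Alternatives were RLE and upper-quartile scaling, other filters, an adjusted p under 0.01, DESeq2 1.42.0, limma 3.58.1 on log2 FPKM, a replicate block, other reference libraries and each library left out. Floors cover counting error only, since PCR copies are not independent molecules.

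All HOX members are counted, and some items are not reported here. Those at a mean of 1 CPM or more, or called, are given by library. The members, the related lists and the tests were chosen with earlier results of these data known.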

Additional observations from a re-analysis of the deposited data

How the results depend on the processing

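Of 1357 values recomputed for single HOX genes under the alternatives, 1184 kept their direction and their side of the threshold and 56 changed sign, 19 of them outside the fits that left out 1 library. None of the 12 called log2 changes at 100 µM changed sign. HOXA3, HOXA10, HOXB3, HOXB9 and HOXC13 kept their calls at 100 µM under all alternatives. The number of HOX genes that fell at 100 µM was 9, and 5 without a filter, 5 at an adjusted p under 0.01, 4 with control replicate 1 alone and 6 to 8 with 1 library left out. The number that rose was 3, and 1 at an adjusted p under 0.01, 1 with control replicate 1 alone and 1 to 3 with 1 library left out. At 0.01 µM the count of 1 became 0 with control replicate 1 alone (2 at an unadjusted p under 0.05 in edgeR) and 0 to 1 with 1 library left out. At 0.1 µM the count of 1 became 0 under upper-quartile scaling (2 unadjusted in edgeR), 0 at an adjusted p under 0.01 (1 unadjusted), 0 with control replicate 1 alone (0 unadjusted) and 0 to 1 with 1 library left out. At 10 µM the count of 0 became 1 under upper-quartile scaling and 0 to 1 with 1 library left out. Positive slopes numbered 2, and 1 at an adjusted p under 0.01, 0 without the 100 µM libraries and 1 to 3 with 1 library left out. Negative slopes numbered 10, and 8 under RLE scaling, 8 without a filter, 3 at an adjusted p under 0.01, 0 without the 100 µM libraries and 4 to 10 with 1 library left out. A threshold of 0.01 is stricter by construction, and fits with fewer libraries have less power. For the other changes the cause was not tested.

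Signs changed at 100 µM in log2 change under upper-quartile scaling for HOXC4 (-0.018) and HOXC8 (-0.012). With control replicate 1 alone they changed for HOXA6 (0.086), HOXA9 (0.14), HOXB7 (-0.020) and HOXC10 (-0.054). With the 12 libraries at 0.001 to 1 µM as the reference they changed for HOXA9 (0.039), HOXB7 (-0.023), HOXB13 (-0.0040), HOXC4 (-0.023), HOXC6 (-0.0043) and HOXC10 (-0.093). That of HOXC10 was the one past the threshold there (edgeR adjusted p = 0.0453). Without the 100 µM libraries the slope changed sign for HOXA6 (0.021), HOXA11 (0.012), HOXB8 (-0.027), HOXB9 (-0.0044), HOXD4 (-0.012), HOXD10 (0.010) and HOXD11 (-0.067). With 1 library left out, the log2 change at 100 µM ran from -0.12 to 0.13 for HOXA9, -0.089 to 0.12 for HOXC4, -0.020 to 0.12 for HOXC6, -0.095 to 0.28 for HOXC8 and -0.12 to 0.024 for HOXC9. The slope ran from -0.00072 to 0.022 for HOXA9, -0.011 to 0.023 for HOXB8, -0.0086 to 0.0060 for HOXC6, -0.020 to 0.0053 for HOXC8, -0.0035 to 0.12 for HOXD4, -0.013 to 0.0069 for HOXD9, -0.034 to 0.017 for HOXD10 and -0.012 to 0.044 for HOXD11.

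The replicate number as a block gave 3 HOX genes that rose and 9 that fell at 100 µM, 1 at 0.01 µM, 1 at 0.1 µM, 0 at the other doses, and 2 positive and 9 negative slopes. The numbers did not pair the libraries. The correlation of deviations from the group means was -0.139 to 0.127 over 63 pairs with the same number, 1 of them above 0.1, and 9 of 21 libraries correlated best with their own number. Depth limits the HOX genes under 1 CPM, for which a few counts decide the change. Of the library total that the FPKM imply, 6.70% lay outside the gene counts in controls and 2.51% to 4.40% in treated groups (means). The controls differed among themselves, with 3.91% in replicate 1, 8.03% in replicate 2 and 8.17% in replicate 3. Single treated libraries had 1.04% to 5.43%, a range that holds control replicate 1.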
